A study of Homo sapiens with 18 samples.

Results

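NCIH716 is an established human cell line, labelled colorectal cancer (CRC) in this series and known in the field as a line with neuroendocrine features. It was 1 of 18 cell lines measured on 1 whole-transcriptome array each, and it was picked by its cell line label and set against the other 17 lines. Among those, HUTU80 is known in the field as a duodenal line. NCIH716 was grown in RPMI 1640 medium, which MDST8, COLO320HSR, LS513, SNUC1, RCM1, KM12 and HCT116 also received. The medium of OUMS23, HUTU80, CAR1, CL40, LS180, SW1463, SW948, HT55, SW48 and RKO was DMEM/F-12. The labels give no treatment for any line, and the series sets its lines beside the molecular subtypes of CRC.

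Each line was measured once, so a value of NCIH716 has no replicate error and no test was made. Its distance from the other lines is set instead against their own spread, given as the lowest, the median and the highest of the 17 lines. Values are log2 intensities, on which 1 unit is a 2-fold and 3 units an 8-fold difference. Of 19774 genes, 12926 exceeded a background level of 4.93 log2 units in at least 1 line, and counts are over these, except that gene lists are counted over all their measured members. In NCIH716 9491 genes exceeded it, within the range over all lines of 9200 to 9736, and array medians lay between 3.65 and 3.69. Of all 19774 genes, 7.97% lay at least 1 unit above the median of the other lines in NCIH716 and 7.25% at least 1 unit below. Every count of measured list members at 1 unit is to be read beside these shares.

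Neuroendocrine cells of the gut sense nutrients and neural signals and store peptide hormones in dense-core granules built on chromogranins and secretogranins. They release them by a calcium-triggered exocytosis that shares its machinery with neurons. In the intestinal epithelium they arise, like goblet cells, from secretory precursors, and INSM1, ISL1 and RFX6 are among the transcription factors of their differentiation.

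The neuroendocrine name that the field gives this line was first set beside 4 marker genes. CHGA, chromogranin A of the dense-core granule, read 9.74 in NCIH716, against 2.85, 3.07 and 3.46 in the other 17 lines (lowest, median and highest, as throughout). INSM1, a zinc-finger factor of endocrine differentiation, read 9.43 in NCIH716, against 3.19, 3.47 and 4.52 in the others. Both were above background in NCIH716 alone. The 4 markers were set for this line beforehand, so their height describes it and does not test the name. ALB, serum albumin, read 11.80 in NCIH716, against values from 2.83 to 3.17 in the others. COL14A1, a fibril-associated collagen, read 12.70 in NCIH716, against 2.92, 3.11 and 3.52 in the others. These too were above background in no other line. Another probe set placed INSM1, ALB and COL14A1 at least 1 unit above every other line as well (2 of 2, 3 of 4 and 2 of 4 probe sets), while CHGA had 1 probe set.

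The sequences before the starts of 2 granule genes and 2 plasma protein genes are shown because both groups were among the most restricted of NCIH716. Each line gives the 250 bases before the RefSeq transcript start, 5′ to 3′ on the gene's strand, in build GRCh38.p14. Capitals mark matches on either strand to an E-box (CAGNTG, the core bound by basic helix-loop-helix factors), the HNF1 core (GTTAAT), a cyclic AMP response element (TGACGTCA) or a forkhead core (TGTTTAC).
CHGA, chr14:92922900-92923149, plus strand: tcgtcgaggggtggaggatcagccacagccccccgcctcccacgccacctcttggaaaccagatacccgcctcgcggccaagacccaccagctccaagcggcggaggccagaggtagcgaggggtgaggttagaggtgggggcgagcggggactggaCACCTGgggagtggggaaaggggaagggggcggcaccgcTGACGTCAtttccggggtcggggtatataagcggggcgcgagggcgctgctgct
SCG3, chr15:51681253-51681502, plus strand: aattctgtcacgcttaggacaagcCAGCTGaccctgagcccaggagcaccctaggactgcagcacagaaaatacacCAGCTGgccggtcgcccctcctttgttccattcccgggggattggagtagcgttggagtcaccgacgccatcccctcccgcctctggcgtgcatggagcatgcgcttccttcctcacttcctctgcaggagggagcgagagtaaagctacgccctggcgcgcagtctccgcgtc
ALB, chr4:73404037-73404286, plus strand: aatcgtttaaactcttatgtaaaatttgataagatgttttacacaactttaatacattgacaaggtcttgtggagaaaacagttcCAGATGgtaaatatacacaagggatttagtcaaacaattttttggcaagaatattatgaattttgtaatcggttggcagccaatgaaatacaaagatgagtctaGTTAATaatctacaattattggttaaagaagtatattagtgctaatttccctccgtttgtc
AMBP, chr9:114078301-114078550, minus strand: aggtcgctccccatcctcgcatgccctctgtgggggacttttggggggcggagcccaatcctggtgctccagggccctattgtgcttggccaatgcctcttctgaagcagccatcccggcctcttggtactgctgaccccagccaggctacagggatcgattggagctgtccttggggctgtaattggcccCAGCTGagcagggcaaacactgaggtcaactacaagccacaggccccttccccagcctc
The CHGA window held 1 E-box and 1 cyclic AMP response element, SCG3 held 2 E-boxes, ALB 1 E-box and 1 HNF1 core, and AMBP 1 E-box. RefSeq windows of 300 bases (250 before to 50 after the start) were matched for 62 of the 92 most restricted genes described next, giving 99 windows. A gene with several windows is counted several times, and no count per gene was made. An E-box lay in 66.7% of these 99 windows, against 49.9% of all 35116 windows. The HNF1 core lay in 14.1% of them against 6.88% of all, the forkhead core in 6.06% against 3.42%, and the response element in 2.02% against 1.85%. The matches in the 4 sequences shown do not overlap, and a match is a description of letters, not a bound site.

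NCIH716 had the largest number of restricted genes in the panel. In all, 92 genes (0.712% of the 12926) lay at least 3 log2 units above every other line in NCIH716, against 1, 9 and 60 such genes in the others. The highest of these, 60, belonged to MDST8. In the opposite direction 8 genes (0.0619%) lay at least 3 units below every other line in NCIH716, against 1, 4 and 19 in the others. With a gap of 1 unit the counts were 288 higher (2.23%) and 60 lower (0.464%) in NCIH716, against 12, 50 and 280 higher and 6, 22 and 118 lower in the others. At the gap of 3 units the high count of NCIH716 was 92 against at most 60, whereas at 1 unit OUMS23 (280) and MDST8 (276) were close to it. Its low counts lay within the range of the panel.

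**Figure D1:**
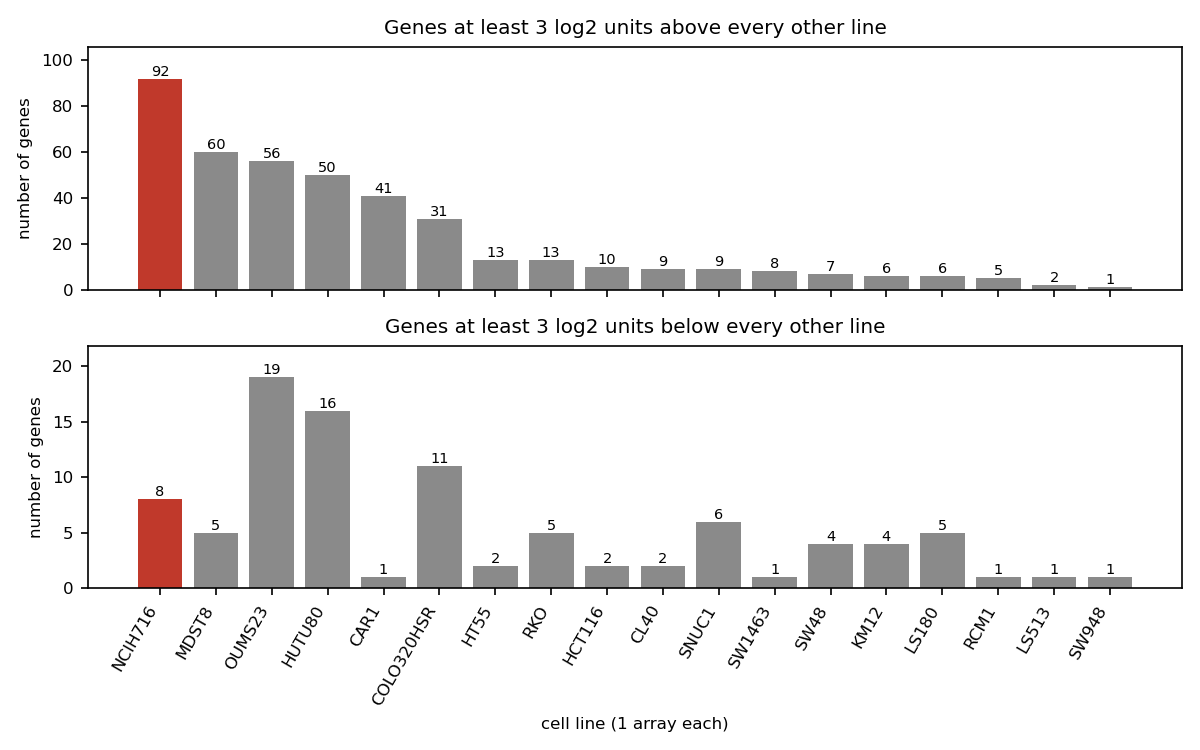
Number of genes at least 3 log2 units above (top) or below (bottom) every other line, for each of the 18 lines, NCIH716 in red at the left and the other lines in grey. NCIH716 has 92 high genes, against at most 60 in another line, and 8 low genes, against up to 19.

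Of the 92 genes, 66 were at background in all other lines and 26 exceeded it in some, 2 of them in every line. Their median gap to the next line was 4.24 log2 units, and 28 had a gap of at least 5. For genes at background elsewhere the gap depends on each probe set's own floor, so the order among them carries no weight. The next line was SW1463 for 11 genes, HUTU80 and OUMS23 for 9 each, and 1 of the other lines for the rest, each with 2 to 8. The members just inside the threshold were CPE (3.05), THBS3 (3.05) and MIR7-3HG (3.02), and just outside it PHYHIPL (2.98), RAP1GAP (2.92) and NCALD (2.89). Other probe sets existed for 46 of the 92 genes, and for 35 of these another probe set also lay at least 1 unit above every other line.

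**Figure D2:**
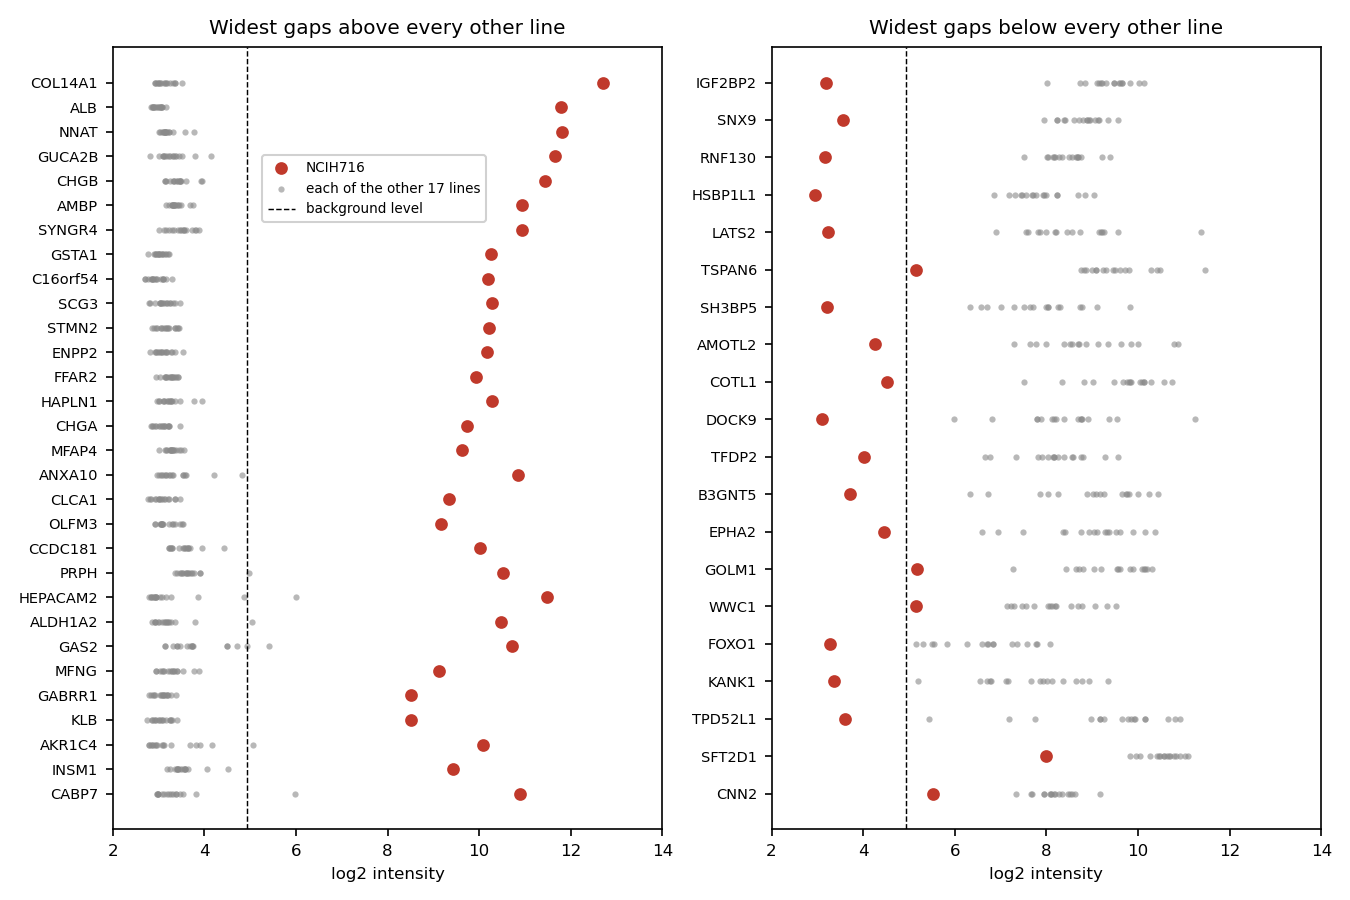
Log2 intensity (x axis) of the 30 genes with the widest gap above and the 20 with the widest gap below every other line, NCIH716 in red and each of the other 17 lines in grey, with the background level of 4.93 dashed. At left the red points lie between 8.50 (KLB) and 12.70 (COL14A1), while nearly all grey points are under the dashed line; at right IGF2BP2, SNX9 and RNF130 read under 4 in NCIH716 and above 7 in every other line.

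By function, sorted after the values were seen, 11 of the 92 genes were granule, hormone or neuroendocrine regulator genes and 14 were neuronal proteins and channels. A further 7 encoded plasma proteins, 6 conjugating or redox enzymes, 6 products or regulators of the gut's secretory lineage and 6 extracellular matrix proteins. Receptors and adaptors numbered 5 and genes of blood cells 4, and 33 fell in none of these classes. Only the 92 genes were sorted, so the share of each class over all genes is not known. The class counts describe the 92 genes and do not show that a class is over-represented.

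Several dense-core granule proteins were above background in NCIH716 alone. CHGB, the second chromogranin, read 11.44 in NCIH716, against 3.13, 3.41 and 3.96 in the others. SCG3, which helps sort granins into granules, read 10.27 in NCIH716, against 2.80, 3.10 and 3.47. SCG2, secretogranin II, read 10.66 in NCIH716, against 3.26, 3.66 and 8.07, the last in HCT116. All 4 of these granins were highest in NCIH716, and SCG2 alone was above background in another line. VGF, a precursor of neuroendocrine peptides, read 9.29 in NCIH716, against 4.11, 4.86 and 7.39. SCGN, the calcium sensor secretagogin, read 7.44 in NCIH716, against 3.11, 3.41 and 3.70. Of the 20 granule genes measured, 11 lay at least 1 unit above the median of the other lines in NCIH716 and none lay 1 unit below it, against 7.97% and 7.25% of all 19774 genes. The median over the 20 was 1.77 in NCIH716, against −0.22 to 0.14 for the same genes in the other lines. Of the 20, 5 were above background in NCIH716 alone, and among the 11 above background in another line 6 were at least 1 unit higher in NCIH716 and none lower (10.7% and 11.2% of all genes so chosen), with a median of 1.56 in NCIH716, against −0.79 to 1.93 (MDST8). CADPS, a priming factor for granule release, was at background (3.36 in NCIH716, against 2.95, 3.27 and 10.40, the last in SNUC1).

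Hormones themselves were few: 4 of 19 measured were above background in NCIH716, and these 4 were also the ones at least 1 unit above the others' median. GCG, the precursor of glucagon and GLP-1, read 12.97 in NCIH716, against 2.75, 3.07 and 12.94 in the others. HUTU80 was the line at 12.94, so the 2 lines were alike in GCG. NPW, neuropeptide W, read 10.90 in NCIH716, against 2.93, 3.20 and 9.59, and SST, somatostatin, read 7.05 in NCIH716, against 3.08, 3.24 and 3.61. NTS, neurotensin, read 5.23 in NCIH716, against 2.77, 3.14 and 9.07. CCK and GIP were at background in NCIH716 (3.13 and 3.10). CPE, the carboxypeptidase that trims prohormones, read 11.35 in NCIH716, against 2.97, 3.59 and 8.30. It was 1 of the 92 genes, while PAM, which amidates peptides, read 8.95 in NCIH716, against 3.81, 9.73 and 11.18, and QPCT, a glutaminyl cyclase, read 2.94 in NCIH716, against 2.98, 4.65 and 9.92.

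Among neuroendocrine transcription factors, 7 of 24 measured lay at least 1 unit above the median of the other lines and 1 lay 1 unit below. Of the 7, 6 exceeded background in at least 1 line. ISL1, a LIM-homeodomain factor of endocrine and motor neuron fate, read 9.36 in NCIH716, against 2.75, 3.71 and 6.12. RFX6, needed for pancreatic and gut endocrine cells, read 7.59 in NCIH716, against 2.86, 3.09 and 3.53. HES6, a member of the HES family that counters HES1, read 10.98 in NCIH716, against 5.09, 7.46 and 9.11. REST, the repressor of neuronal genes in other cells, read 6.76 in NCIH716, against 7.32, 7.79 and 8.67, and was lowest in NCIH716. PAX6 and NKX2-2 were at background in NCIH716 (3.64 and 3.32), and in HUTU80 they read 11.33 and 7.12. The median over the 24 was 0.35 in NCIH716, against −0.11 to 0.12 in the other lines.

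Of 25 neuronal adhesion and cytoskeleton genes measured, 15 lay at least 1 unit above the median of the others and none 1 unit below. The median over the 25 was 1.97 in NCIH716, against −0.12 to 0.15 in the other lines, and 2 of the 25 were above background in NCIH716 alone. NNAT, neuronatin, an imprinted gene of neurons and endocrine cells, read 11.80 in NCIH716, against 3.02, 3.14 and 3.77. STMN2, a microtubule regulator of axons, read 10.22 in NCIH716, against 2.86, 3.16 and 3.45. PRPH, the neuronal intermediate filament peripherin, read 10.53 in NCIH716, against 3.35, 3.62 and 4.98. DCX, doublecortin of migrating neurons, read 7.91 in NCIH716, against 2.74, 3.06 and 3.41, and NCAM1, a neural adhesion molecule, read 9.07 in NCIH716, against 3.19, 3.48 and 7.76. Not all of these were restricted: UCHL1, a neuronal deubiquitinase, read 9.89 in NCIH716 and 12.17 in COLO320HSR, and TUBB3, neuronal beta-tubulin, read 10.71 in NCIH716, against 10.58, 10.99 and 12.45. OLFM3, an olfactomedin of nervous tissue, read 9.16 in NCIH716, against at most 3.54 in another line.

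The machinery of regulated exocytosis was split. SYT4, an atypical synaptotagmin, read 8.53 in NCIH716, against 3.13, 3.36 and 3.69. STX1A, the membrane SNARE syntaxin 1A, read 7.84 in NCIH716, against 3.66, 4.12 and 5.76, and UNC13A, a vesicle priming factor, read 7.02 in NCIH716, against at most 5.43. These were highest in NCIH716, whereas SYT1, SV2A and SNAP25 reached higher values in MDST8 or COLO320HSR (9.88, 7.71 and 6.96 in NCIH716, against maxima of 10.99, 9.48 and 7.76). In all 8 of 22 members measured lay at least 1 unit above the others' median and 1 lay 1 unit below. Of 20 voltage-gated channel genes measured, 8 were at least 1 unit above it and none 1 unit below, 3 of the 20 being above background in NCIH716 alone. The median over the 20 was 0.21 in NCIH716, against −0.13 to 0.10 in the other lines. CACNA2D2, an auxiliary calcium channel subunit, read 9.85 in NCIH716, against 4.43, 4.73 and 6.13. KCNMA1, the large-conductance potassium channel, read 9.15 in NCIH716, against 2.96, 3.22 and 9.83. GABRR1, a GABA receptor subunit, read 8.52 in NCIH716, against at most 3.39 in another line.

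Receptors by which gut endocrine cells sense their surroundings were led by 1 gene. FFAR2, the short-chain fatty acid receptor, read 9.94 in NCIH716, against 2.94, 3.26 and 3.42. GPBAR1, the bile acid receptor, read 5.37 in NCIH716, against 3.49, 3.72 and 4.05, only just above background. FFAR4, for long-chain fatty acids, read 5.44 in NCIH716, against 2.71, 3.03 and 6.91, and CHRM3, the muscarinic receptor, read 8.29 in NCIH716, against 3.78, 5.42 and 8.46. Of 21 receptors measured 7 were at least 1 unit above the others' median and 1, the insulin receptor INSR, 1 unit below (5.25 in NCIH716, against 4.67, 6.74 and 8.15). Of the 7, 6 exceeded background in at least 1 line. GLP1R was at background in NCIH716 (4.50).

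Plasma proteins formed a second restricted group. AMBP, precursor of alpha-1-microglobulin and bikunin, read 10.93 in NCIH716, against 3.17, 3.35 and 3.75. F5, coagulation factor V, read 10.76 in NCIH716, against 2.95, 3.30 and 6.33. TTR, RBP4 and APOH, which carry thyroid hormone, retinol and lipids, read 7.12, 7.32 and 6.86 in NCIH716, against maxima of 3.71, 3.91 and 4.32. Of 28 such genes measured, 6 lay at least 3 units above the others' median in NCIH716, against 2.33% of all 19774 genes and 3.56% of those above background, and 5 of these were above background in no other line. The others were at background in NCIH716, such as SERPINA1 (4.60 in NCIH716, against 2.97, 3.76 and 12.32 in CAR1) and APOA2 (3.46). The group was thus a few genes: the median over all 28 was 0.20 in NCIH716, against −0.11 to 0.06 in the other lines.

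Defining enzymes of hepatocytes did not follow the plasma proteins. Of 20 hepatocyte enzyme genes measured, 1 exceeded background in NCIH716, against 1 to 3 in the other lines. It was TDO2, the tryptophan dioxygenase, with 7.31 in NCIH716, against 3.02, 3.48 and 12.19 (SW48). CPS1, OTC and PCK1 read 3.50, 2.75 and 3.27 in NCIH716. Of liver and foregut transcription factors, FOXA1, FOXA2 and FOXA3, pioneer factors of endoderm, read 7.80, 8.21 and 7.58 in NCIH716, against medians of 4.86, 5.79 and 5.26, and maxima of 7.67, 8.26 and 7.85. CEBPA and GATA6 were at background in NCIH716 (3.54 and 3.26), against medians of 6.32 and 7.99.

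**Figure D3:**
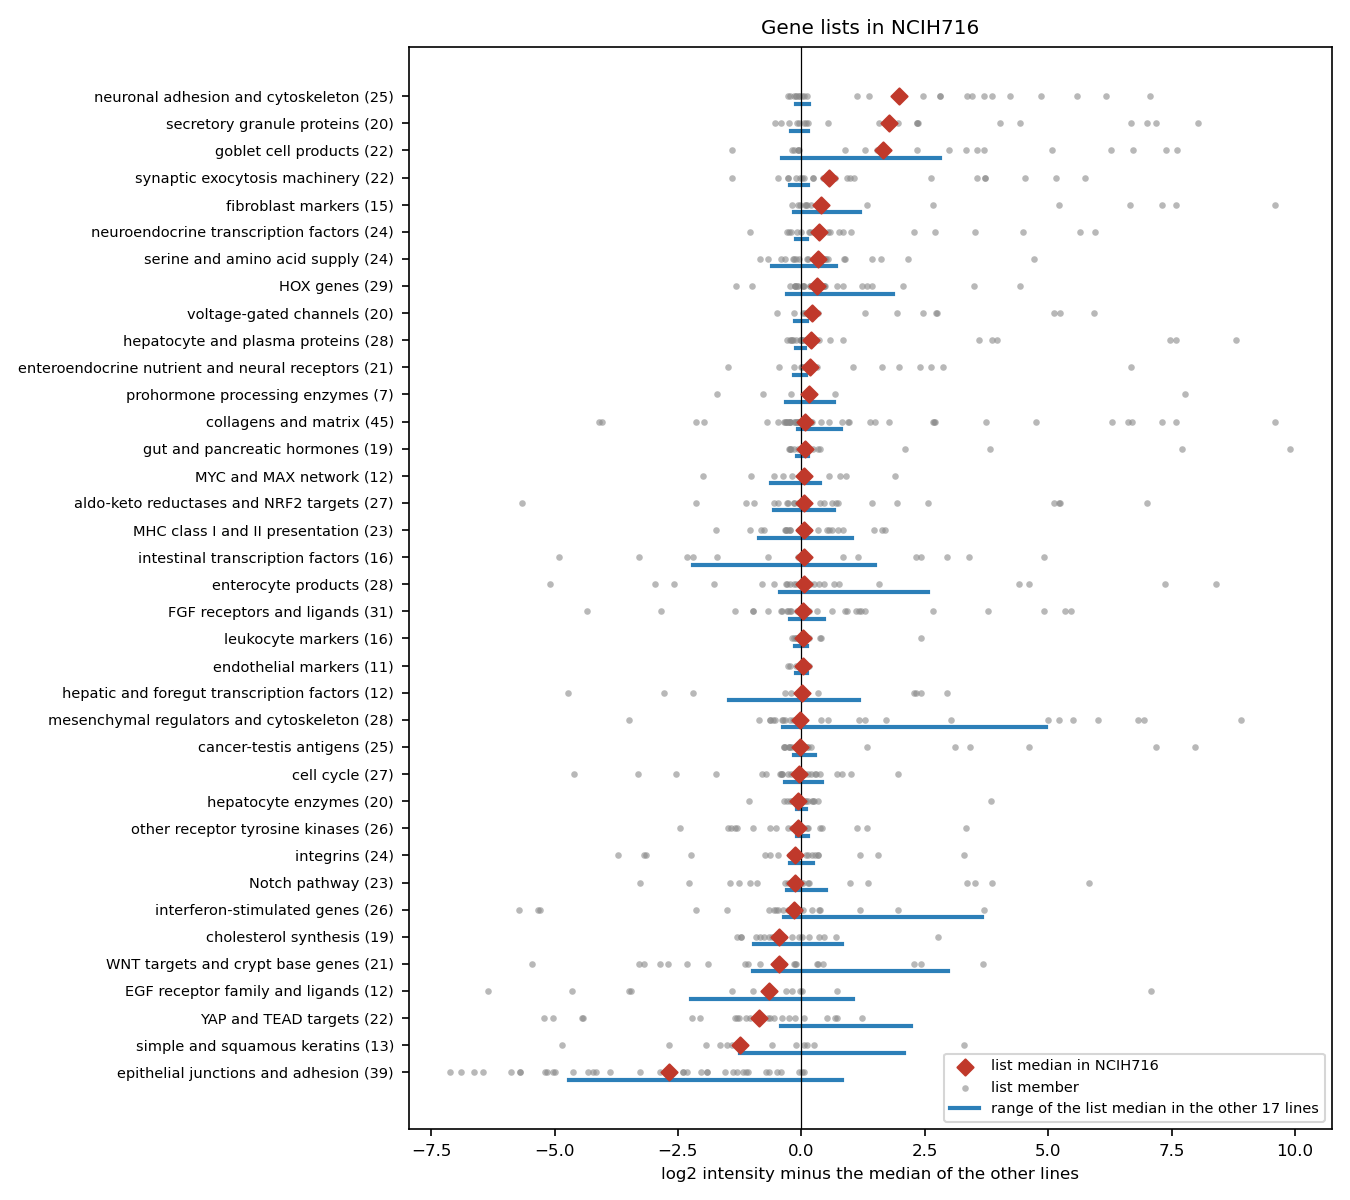
Deviation of NCIH716 from the median of the other lines (x axis, log2 units) for all measured members of 37 gene lists (grey), with the list median in NCIH716 as a red diamond and the range of the same median over the other 17 lines as a blue bar; the number of members stands in brackets. The granule and neuronal diamonds lie at 1.77 and 1.97, right of their blue bars, while those of hormones and plasma proteins, with a few far members, lie at 0.075 and 0.20, and that of epithelial junctions at −2.68, inside its bar.

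Goblet cell genes were high in NCIH716 but rarely confined to it. ATOH1, the basic helix-loop-helix factor that commits intestinal cells to the secretory lineage, read 8.56 in NCIH716, against 3.21, 3.65 and 4.16. SPDEF, which drives goblet maturation, read 7.85 in NCIH716, against 4.03, 4.46 and 5.84. FCGBP, a mucus protein, read 11.10 in NCIH716, against 2.87, 3.50 and 7.85, and CLCA1, a mucus protease, read 9.34 in NCIH716, against 2.77, 3.06 and 3.48. In contrast AGR2 and SPINK4 were matched elsewhere (13.12 and 10.99 in NCIH716, against maxima of 12.95 and 12.20). MUC2, the main intestinal mucin, was at background (4.82 in NCIH716, against 2.73, 3.24 and 7.79). Of 22 members measured 15 lay at least 1 unit above and 1 lay 1 unit below the others' median. Of the 15, 14 exceeded background in at least 1 line. The median over the 22 was 1.65 in NCIH716, against −0.40 to 2.81 in the others, 3 of which were higher. HEPACAM2, an immunoglobulin-family protein of secretory cells, read 11.49 in NCIH716, against at most 5.99 in another line.

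Absorptive genes showed a few high members. GUCA2B, uroguanylin, read 11.65 in NCIH716, against 2.81, 3.25 and 4.14, and SI, sucrase-isomaltase of the brush border, read 10.44 in NCIH716, against 2.85, 3.08 and 8.31. Against these, LGALS4 read 5.30 in NCIH716, against 3.20, 10.39 and 12.52, and the fatty acid binding protein FABP1 was at background (3.26). Counts were 5 higher and 4 lower of 28 measured (7.97% and 7.25% of all genes), with a median of 0.043 in NCIH716. The same median was −0.42 to 2.57 in the other lines, 7 of which were higher. CDX2, the intestinal homeobox factor, read 6.99 in NCIH716, against 4.28, 7.06 and 11.44. SOX9 and ASCL2, factors of crypt progenitors, read 5.11 and 3.84 in NCIH716, against medians of 10.02 and 7.12.

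Most genes of epithelial adhesion were low. CDH1, E-cadherin, read 3.67 in NCIH716, against 3.16, 10.77 and 11.58. EPCAM read 9.19 in NCIH716, against 3.74, 12.06 and 12.50, so it was reduced but well above background. The splicing regulator ESRP1 was at background in NCIH716, at 3.31, against 3.32, 10.20 and 10.95. Of 39 members measured, none lay 1 unit above the others' median and 32 lay at least 1 unit below it, 17 of them by 3 units (1.36% of all genes and 2.07% of those above background did). The list median was −2.68 in NCIH716, against −4.70 (MDST8) to 0.83 in the other lines, and 13 of the 17 lines were higher. Keratins KRT8, KRT18 and KRT19 read 10.31, 11.20 and 7.09 in NCIH716, against medians of 12.23, 12.71 and 11.93. CLDN4 and CLDN7, claudins of tight junctions, still read 8.31 and 8.21 in NCIH716, against medians of 9.61 and 10.25.

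Mesenchymal genes were divided. VIM, vimentin, read 12.33 in NCIH716, against 3.04, 3.44 and 13.19, and ZEB1, a repressor of CDH1, read 9.43 in NCIH716, against 2.82, 3.43 and 10.66. A second VIM probe set read 4.55 in NCIH716, under the background level, against 2.70, 3.02 and 7.48, the last in MDST8. CDH11, a mesenchymal cadherin, read 9.89 in NCIH716, against 2.83, 3.07 and 7.14, and was highest in NCIH716. Yet ZEB2, TWIST1, SNAI2, CDH2 and FN1 were at background in NCIH716 (2.98, 3.01, 3.73, 3.56 and 3.90), each with another line between 6.98 and 12.82. CAV1, caveolin, was at background in NCIH716, at 3.36, against 3.50, 6.85 and 12.01. In all 11 of 28 members measured were at least 1 unit above and 1 was 1 unit below, for a median of −0.020 in NCIH716, against −0.37 to 4.96 in the others.

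Matrix genes followed the same division. COL3A1, a fibrillar collagen, read 10.57 in NCIH716, against 2.92, 3.27 and 6.95. HAPLN1, a link protein of hyaluronan, read 10.29 in NCIH716, against 2.96, 3.22 and 3.94, and MFAP4, a microfibril protein, read 9.63 in NCIH716, against 3.01, 3.27 and 3.55. LUM and COL5A2 read 10.57 and 9.47 in NCIH716 and were still higher in HUTU80 (11.30 and 10.85). Of 45 matrix genes measured 14 lay at least 1 unit above and 4 lay 1 unit below the others' median. The median over the 45 was 0.079 in NCIH716, against −0.075 to 0.81 in the other lines, 3 of which were higher. Over the 38 above background in another line it was −0.087 in NCIH716, and 16 of the other lines were higher. COL6A3, COL5A1, COL4A1, DCN and FBLN1 were at background in NCIH716 (2.94, 2.75, 3.08, 3.42 and 3.47).

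Markers of other cells that a culture could hold were read beside these. Of 15 fibroblast markers 6 exceeded background in NCIH716 (COL14A1, LUM, COL3A1, FAP, PRRX1 and POSTN), against 0 to 6 in the other lines. The summed linear signal of the 15 was 11476 in NCIH716, against 157, 176 and 5482. That sum includes COL14A1 (12.70 in NCIH716), 1 of the 4 markers set for this line beforehand, so its height tests nothing. DCN, THY1, PDPN and FBLN1 were at background in NCIH716. The median over the 15 was 0.39 in NCIH716, against −0.15 to 1.19 (HUTU80). Leukocyte markers above background numbered 1 of 16 in NCIH716, against 0 to 2, and endothelial markers 0 of 11, against 0 to 1. PTPRC, the leukocyte common antigen, was at 3.17 in NCIH716 and CDH5, of endothelium, at 3.40. What fibroblasts could have contributed to the matrix values was not tested.

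Some restricted genes belonged to blood cells in textbook terms. PAX5, the B cell factor, read 8.02 in NCIH716, against 2.93, 3.22 and 3.73. RHOH, a GTPase of lymphocytes, read 8.03 in NCIH716, against 2.95, 3.09 and 3.45, and FERMT3, the kindlin of blood cells, read 8.85 in NCIH716, against 3.34, 3.77 and 4.28. C16orf54 read 10.19 in NCIH716, against 2.70, 2.92 and 3.29. PAX5, RHOH and FERMT3 were named after their values were seen, and the leukocyte markers above were at background beside them, apart from LYZ (7.26 in NCIH716, against 2.85, 4.85 and 11.51).

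Growth factor receptors differed by family. ERBB4, which binds neuregulins, read 10.12 in NCIH716, against 2.75, 3.03 and 8.94 (HUTU80). ERBB2, its kinase partner, was lowest in NCIH716, at 3.93, against 5.56, 7.37 and 8.33. The ligands TGFA, HBEGF and EREG were at background in NCIH716 (3.28, 4.17 and 2.82), against medians of 7.93, 7.65 and 9.17. Within the FGF family KLB, beta-Klotho, the co-receptor for endocrine FGFs, read 8.50 in NCIH716, against 2.76, 3.05 and 3.40. FGF9 read 8.74 in NCIH716, against 3.06, 3.83 and 8.16. FGFR1, FGFR3 and FGFR4 read 5.30, 5.91 and 4.84 in NCIH716, against medians of 4.68, 7.25 and 5.81. SPRY1, a feedback inhibitor of the pathway, read 9.78 in NCIH716, against 4.42, 7.12 and 9.31.

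FGFR2 depended on the probe set. The probe set with the highest mean read 8.68 in NCIH716, against 3.10, 4.90 and 10.30, the last in OUMS23. Of the 11 FGFR2 probe sets, 4 placed NCIH716 at least 1 unit above every other line and 3 at least 3 units. One of them read 11.03 in NCIH716 against 7.97 in OUMS23, and another 10.68 against 7.20. OUMS23 was above NCIH716 by over 1 unit on 3 probe sets, such as 1 with 8.02 in NCIH716 against 9.87, and below it by over 3 on the 2 just given. Which transcripts each probe set reads was not examined.

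Several WNT and Hippo pathway readouts were low. AXIN2, a feedback target of beta-catenin, was at background in NCIH716, at 3.92, against 4.49, 9.38 and 11.44. LGR5 and LEF1 were at background in NCIH716 (2.69 and 3.26), against medians of 5.39 and 6.46, and RNF43, a ligase that removes WNT receptors, read 5.74 in NCIH716, against 3.06, 8.60 and 9.57. SP5 went the other way, at 8.61 in NCIH716, against 3.19, 4.92 and 7.95. Of 21 WNT and crypt genes 3 lay at least 1 unit above and 9 lay 1 unit below, and the median of −0.46 in NCIH716 lay within that of the other lines (−0.99 to 2.98). Of 22 YAP and TEAD genes 1 lay at least 1 unit above and 11 lay 1 unit below, and the list median of −0.86 was below that of all 17 other lines (−0.41 to 2.22). Its members WWTR1, the YAP paralogue TAZ, and YAP1 read 3.77 and 8.38 in NCIH716, against medians of 8.80 and 9.69. MFNG, a glycosyltransferase that modifies Notch, read 9.13 in NCIH716, against 2.94, 3.31 and 3.88, and DLL3, a Notch ligand of neuroendocrine tumours, read 7.41 in NCIH716, against 3.04, 3.55 and 7.21. NRARP, a Notch target, read 5.76 in NCIH716, against 4.37, 8.04 and 10.39.

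The 8 genes at least 3 units below every other line were mostly at background in NCIH716. IGF2BP2, an RNA-binding protein of fetal growth, read 3.19 in NCIH716, against 8.01, 9.48 and 10.13. SNX9, a membrane-bending adaptor of endocytosis, read 3.57 in NCIH716, against 7.96, 8.88 and 9.57. RNF130, a RING-finger protein, read 3.17 in NCIH716, against 7.51, 8.49 and 9.38. LATS2, a Hippo pathway kinase, read 3.23 in NCIH716, against 6.90, 8.45 and 11.38, and AMOTL2, an angiomotin that binds YAP, read 4.26 in NCIH716, against 7.30, 8.70 and 10.87. HSBP1L1, TSPAN6 and SH3BP5 completed the 8, at 2.96, 5.16 and 3.22 in NCIH716, against minima of 6.85, 8.76 and 6.33. Of the 8, 7 were at background in NCIH716, TSPAN6 being the exception, while the rule for low genes itself requires all other lines above background. The second IGF2BP2 probe set was near background in all lines (3.35 in NCIH716, against 3.10, 4.03 and 5.08), and for 4 of the 6 low genes with several probe sets another one agreed. Just outside the threshold were COTL1, DOCK9 and TFDP2 (−2.99, −2.87 and −2.62), beside SH3BP5 (−3.11) and AMOTL2 (−3.04) inside it.

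Among the 60 genes at least 1 unit below every other line, 24 were at background in NCIH716. The 60 included EPHA2, an ephrin receptor (4.46 in NCIH716, against 6.58, 9.11 and 10.38), WWC1, the Hippo scaffold KIBRA (5.16 in NCIH716, against 7.14, 8.12 and 9.52), and FOXO1 (3.27 in NCIH716, against 5.15, 6.72 and 8.07). The actin-binding COTL1 and CNN2 read 4.53 and 5.53 in NCIH716, against minima of 7.51 and 7.33. By position 13 of the 60 genes lay on chromosome 11, 8 on chromosome 3 and 7 on chromosome 9. These chromosomes carry 5.62%, 5.74% and 4.08% of the genes above background.

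Neighbouring genes were then read along the chromosomes. A run was a stretch of windows of 5 consecutive genes above background, each with at least 4 deviating by 1 unit or more in the same direction from the median of the other lines, as 11.7% of genes did upward and 11.1% downward. NCIH716 had 33 high and 24 low runs, against 10, 22 and 62 high and 2, 6 and 34 low runs in the others, so neither count stood outside the panel. Runs are chosen because their genes deviate in NCIH716, so their counts and medians are descriptions. Gene order was that of GRCh38.p14, and the deposited values carry no measure of DNA copy number.

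The high run of NCIH716 with the most deviating genes lay on chromosome 8 and ended beside MYC. NDUFB9, MTSS1, ZNF572, SQLE, WASHC5, NSMCE2, TRIB1, LRATD2 and POU5F1B, 9 consecutive genes, were all highest in NCIH716. Their median deviation was 2.82 log2 units. In length it was not unusual: the largest number of deviating genes in a high run was 9 in NCIH716, against 13 in MDST8 and OUMS23, 11 in RCM1 and 10 in SW48 in runs of their own. NSMCE2, of the SMC5/6 repair complex, read 12.60 in NCIH716, against 7.71, 8.29 and 9.04, and WASHC5, of the WASH actin complex, read 12.31 in NCIH716, against 7.67, 8.26 and 9.03. MTSS1, a membrane-actin scaffold, read 12.53 in NCIH716, against 4.18, 5.85 and 8.30. SQLE, squalene epoxidase, read 12.98 in NCIH716, against 9.53, 10.22 and 11.23. Of the other 18 cholesterol synthesis genes none lay 1 unit above the others' median. NDUFB9, SQLE, WASHC5, NSMCE2 and TRIB1 were above background in every line, while the other 4 were not.

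The genes next in order did not share the rise. MYC read 11.68 in NCIH716, against 9.42, 11.58 and 13.09, a deviation of 0.10. PVT1, the noncoding RNA after MYC, was lowest in NCIH716, at 5.34, against 6.34, 7.18 and 10.26. On the other side TATDN1 read 9.26 in NCIH716, against 9.21, 10.06 and 10.89. Further off on chromosome 8, DEPTOR, an mTOR inhibitor, and COL14A1 are adjacent and read 12.36 and 12.70 in NCIH716, against medians of 5.19 and 3.11. TAF2, DSCC1 and MRPL13 beside them deviated by −0.07, −0.45 and 0.77. ENPP2, which makes lysophosphatidic acid, and TNFRSF11B, the decoy receptor osteoprotegerin, were also highest in NCIH716 (10.17 and 8.31, against maxima of 3.54 and 6.70). Over the 53 genes from TNFRSF11B to PTK2 17 were at least 1 unit higher and 6 at least 1 unit lower, with a median of −0.09.

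**Figure D4:**
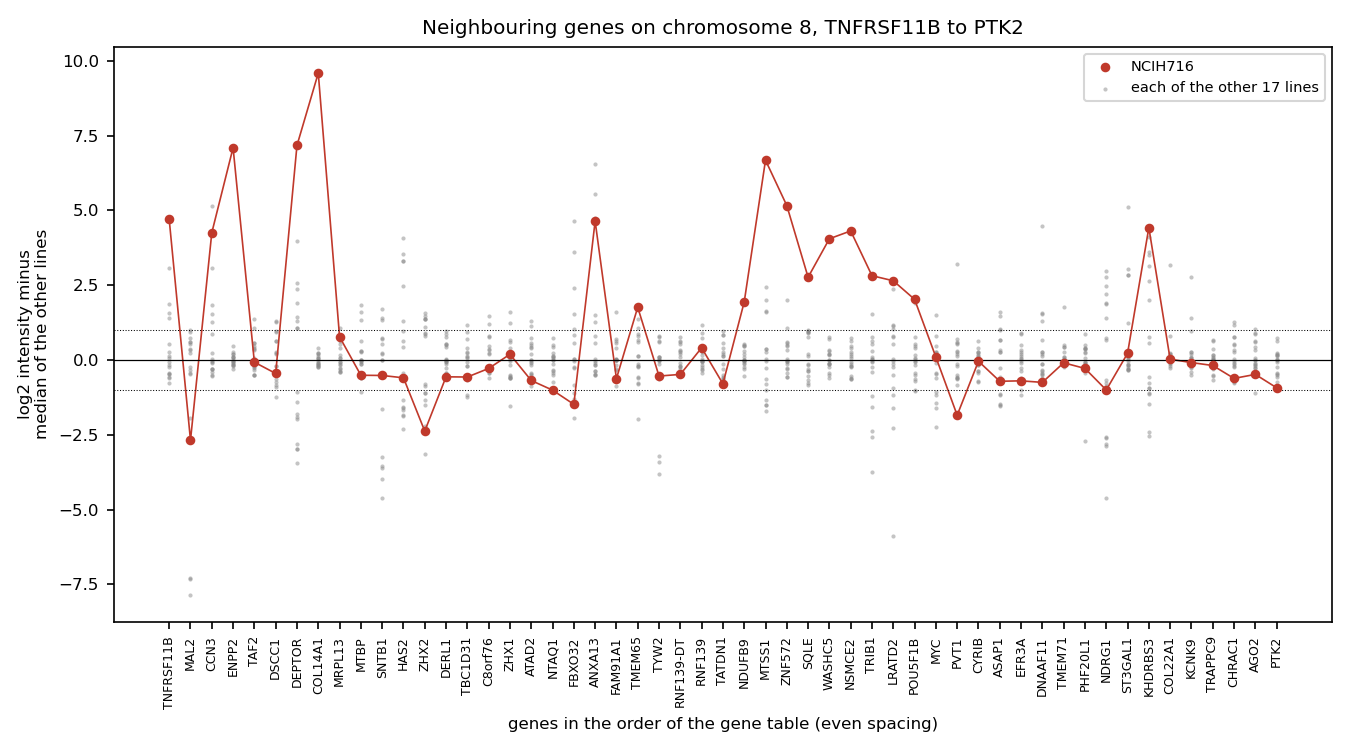
Deviation from the median of the other lines (y axis, log2 units) for 53 neighbouring genes on chromosome 8 in gene order, NCIH716 in red and each of the other 17 lines in grey, with dotted lines at 1 unit. The 9 genes from NDUFB9 to POU5F1B and the pair DEPTOR and COL14A1 stand above the grey points in NCIH716, while MYC lies at 0.10 and PVT1 at −1.84.

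Other high stretches held related enzymes. On chromosome 10 AKR1C1, AKR1C2, AKR1C3 and AKR1C4, aldo-keto reductases of steroids and carbonyls, read 11.43, 10.69, 12.77 and 10.08 in NCIH716, against medians of 6.20, 5.46, 7.65 and 3.08. SNUC1 was alike for the first 3 (11.72, 11.32 and 12.49), whereas AKR1C4 reached at most 5.07 in another line. NQO1 and GCLM, other NRF2 targets, read 11.95 and 9.26 in NCIH716, against medians of 11.32 and 9.21, and GPX2 read 5.53 in NCIH716, against 2.89, 11.19 and 12.53. On chromosome 4 UGT2B15, UGT2B28 and SULT1E1, which conjugate steroids, read 8.64, 8.86 and 7.73 in NCIH716, against maxima of 4.44, 4.44 and 3.46. GSTA1, a glutathione transferase, read 10.26 in NCIH716, against 2.77, 3.02 and 3.22. AKR1C and UGT2B genes are near-identical in sequence, so probes may read several members and their single values are uncertain.

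Further high runs were named after their values were seen, apart from those led by STON2 and GLCCI1. On chromosome 7 8 of 11 genes from GLCCI1 to SOSTDC1 were at least 1 unit higher, among them ETV1, a transcription factor that FGF signalling induces (10.81 in NCIH716, against 3.87, 4.53 and 10.66), and THSD7A (8.16 in NCIH716, against 3.48, 3.70 and 5.29). On chromosome 14 8 of 10 from STON2 to FOXN3 were higher, with TTC8, of the ciliary BBSome, at 10.10 in NCIH716, against 6.77, 7.60 and 8.22. All 6 genes from SLC25A21 to GEMIN2 on chromosome 14, which hold FOXA1 and the somatostatin receptor SSTR1, were higher, with a median of 2.10, and those of HUTU80 had a median of 2.13. All 6 from LINC00261 to CST3 on chromosome 20 were higher as well. LINC00261, a noncoding RNA next to FOXA2, read 10.48 in NCIH716, against 2.97, 3.33 and 7.71. COL3A1 and COL5A2 are neighbours on chromosome 2, where 5 of 6 genes from TFPI to SLC40A1 were higher.

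Low stretches gathered on chromosomes 9 and 11. On chromosome 9 23.5% of genes and on chromosome 11 21.6% lay at least 1 unit below the others' median in NCIH716, the largest shares of any chromosome in NCIH716 for this direction. Chromosome 8, in spite of its high run, followed with 20.2% at least 1 unit below and 9.89% at least 1 unit above. Its median deviation in NCIH716 was −0.39. The highest share of lower genes in another line was 13.66% on chromosome 9, 14.05% on chromosome 11 and 16.34% on chromosome 8. On chromosome 11, 15 of 17 genes from UBE2L6 to MRPL16 and 15 of 17 from GANAB to SNHG1 were at least 1 unit lower. The 66 genes from UBE2L6 to SNHG1 had 46 such members and 2 at least 1 unit higher, with a median of −1.22. DDB1, of the UV damage complex, was lowest in NCIH716, at 8.45, against 9.50, 9.86 and 10.12, and MRPL16, of the mitochondrial ribosome, was lowest at 7.97, against 9.36, 9.73 and 10.84. STX3, an apical syntaxin, read 5.23 in NCIH716, against 6.32, 9.25 and 10.27. The 8 genes from LTBP3 to RELA were all lower, with a median of −1.33. The largest number of deviating genes in a low run was 15 in NCIH716, against 17 in SNUC1 and 13 in COLO320HSR. Between the lower stretches ASRGL1 and FERMT3 were highest in NCIH716 (9.11 and 8.85).

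Elsewhere on chromosome 11, 7 of 8 genes from RIC8A to SIGIRR were at least 1 unit lower, with a median of −3.75. They include the interferon-induced membrane proteins IFITM1, IFITM2 and IFITM3, at 3.59, 4.67 and 5.36 in NCIH716, against medians of 8.93, 9.97 and 11.07. The desmosomal PKP3 lies there too, at 3.41 in NCIH716, against 2.75, 8.40 and 9.16. The IFITM genes are close relatives and probes may be shared among them. Other interferon-stimulated genes were mixed: IFIH1, an RNA sensor, read 11.10 in NCIH716, against 4.07, 7.41 and 11.59, ISG15 read 5.56 in NCIH716, against 6.01, 7.69 and 10.60, and the list median of 26 genes was −0.14.

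On chromosome 9, 29 of 55 genes from SLC1A1 to C9orf72 lay at least 1 unit lower and 3 at least 1 unit higher, with a median of −1.02. The cell cycle inhibitor CDKN2A, within that stretch, read 9.31 in NCIH716, against 2.84, 7.35 and 10.49, and MTAP beside it read 6.08 in NCIH716, against 3.24, 7.60 and 9.51. Of the 11 genes from ZCCHC7 to ALDH1B1 9 were lower (median −1.66), including GRHPR, glyoxylate reductase, at 7.62 in NCIH716, against 8.73, 9.77 and 10.08. PAX5, directly before ZCCHC7 in gene order, was restricted to NCIH716 as given above.

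**Figure D5:**
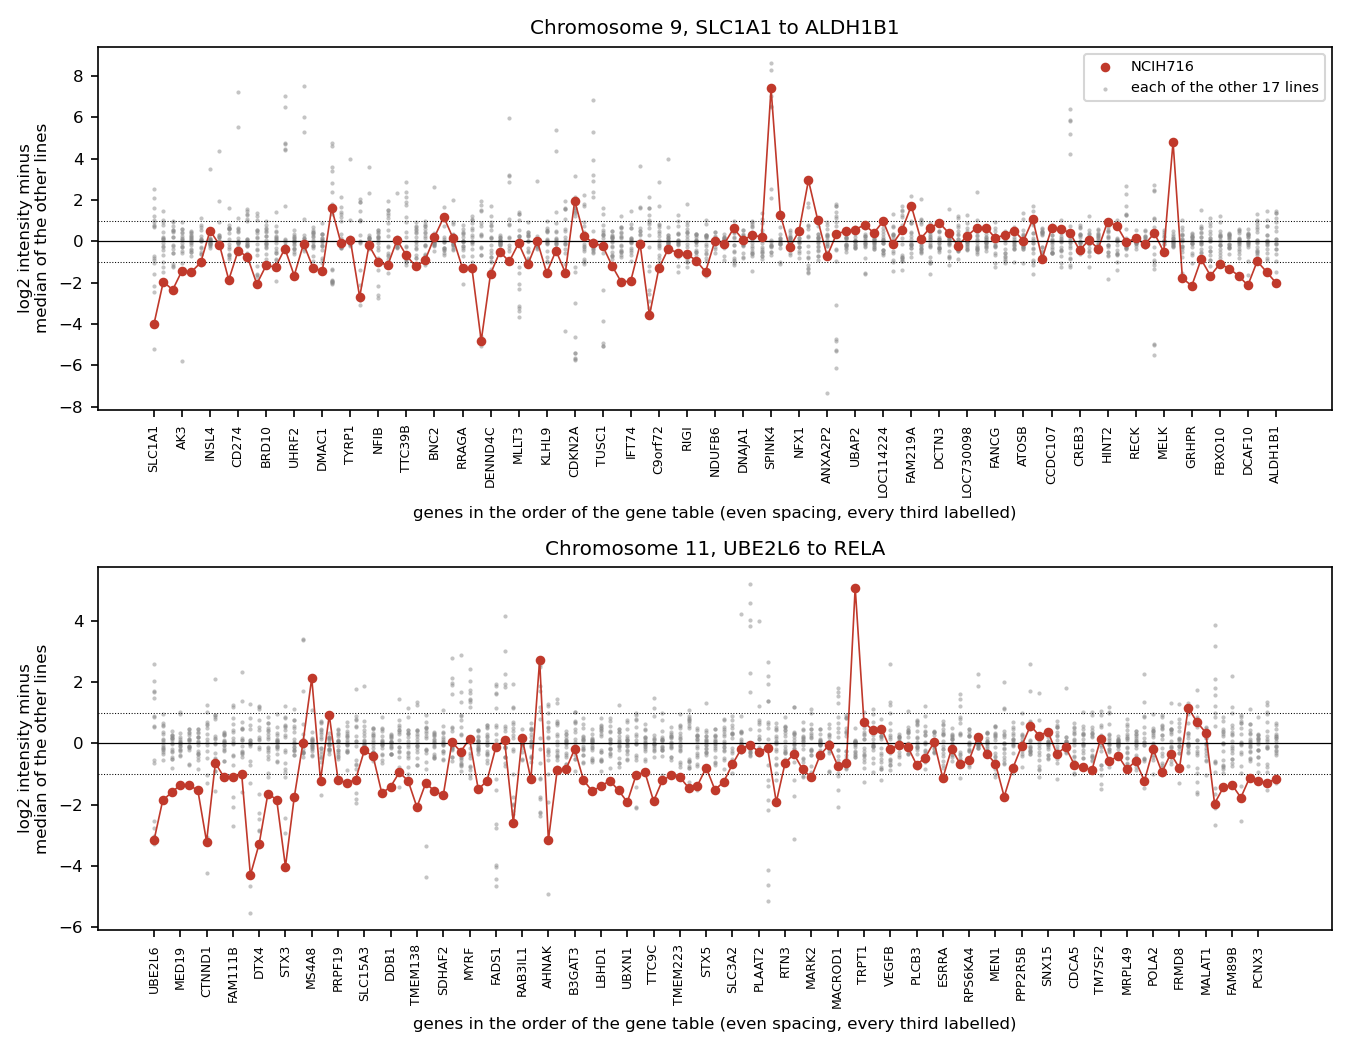
Deviation from the median of the other lines (y axis, log2 units) for neighbouring genes on chromosome 9 (top, SLC1A1 to ALDH1B1, 121 genes) and chromosome 11 (bottom, UBE2L6 to RELA, 129 genes) in gene order, NCIH716 in red and each of the other 17 lines in grey. In NCIH716 39 and 59 of these genes lie at least 1 unit below the others' median, while FERMT3 and PAX5 stand far above it.

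On the upper side, chromosome 14 had 21.7%, the X chromosome 19.1% and chromosome 4 17.9% of genes at least 1 unit above the others' median in NCIH716. Over all genes above background the share was 11.7%. Upward shares per chromosome were not computed for the other lines, so whether these are unusual was not tested. Of the cancer-testis antigens, mostly on X, MAGEA6 and MAGEA12 read 12.05 and 10.54 in NCIH716, against medians of 4.08 and 3.36, and COLO320HSR was alike, with MAGEA12 at 10.86. MAGEA genes also share sequence. Of 25 such genes measured 6 were at least 1 unit higher and none 1 unit lower (7.97% and 7.25% of all genes). The median over the 25 was −0.027 in NCIH716, against −0.15 to 0.29 in the other lines, 9 of which were higher.

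Genes of proliferation differed little in their list median (−0.05 in NCIH716, against −0.34 to 0.42 in the other lines). Of 27 cell cycle genes 2 were at least 1 unit higher and 4 at least 1 unit lower (7.97% and 7.25% of all genes). CCND2, cyclin D2, read 3.93 in NCIH716, against 3.42, 8.55 and 11.15, and CDKN1A, the inhibitor p21, was at background in NCIH716, at 4.13, against 4.24, 7.44 and 8.70. MYCN read 5.55 in NCIH716, against 2.94, 3.65 and 10.03, and MYCL was at background at 3.89, against 4.01, 5.89 and 8.72. Across all 4899 genes varying by 3 units or more, the Pearson correlation of NCIH716 was lowest with OUMS23 (0.337) and highest with KM12 (0.526), with a median of 0.468. This is a description across genes, which are not independent, and all lines share the array platform and its normalization.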

How the data were processed

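Total RNA of 18 cell lines was labelled with biotin and measured on whole-transcriptome arrays, 1 per line. The authors deposited log2 intensities, and the submitters' processing notes name RMA and affy, with versions not given in the sources used here. The table holds 54613 probe sets, from 2.31 to 13.71, and was used without further normalization. RMA shrinks differences near the floor, so differences from lines at background are compressed.

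Of the probe sets, 40914 matched 1 gene in the array annotation, 864 several and 12835 none, and 40858 of the first were found in the RefSeq gene table (GRCh38.p14), used for names and gene order alone because the sources used here name no build. The first kind gave 19774 genes, each represented by its brightest probe set on average. For background, 87 probe sets were taken of 57 genes (of 66 listed) typical of other tissues, and their 95th percentile was used. The 2 brightest probe sets of a gene differed in deviation with a median SD of 0.41 log2 units over 8315 genes. Deviation is NCIH716 minus the median of the other 17 lines, and a gap is its distance to the nearest other line. Below a line, all other lines had to exceed background, and above it, NCIH716 itself. Genes with no place in the gene order were left out of runs (12910 had one).

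The genes named were the 4 markers, the 30 with the widest gap above and 20 below, up to 6 per list by absolute deviation with its defining members, up to 6 for each of the 6 longest runs, and 3 on each side of the threshold. Any other gene named was chosen after its values were seen. The members and the 37 gene lists (903 entries) were chosen with earlier results of these data known, and the function classes after the values were seen. Alternatives were other ways to read a gene, array scaling, other background levels, gaps and run rules, the 7 other RPMI 1640 lines alone, and leaving out each line. Lists are given over all measured members, a choice made after seeing the data, since a filter that NCIH716 itself can pass admits genes for being high there. Some listed genes were not analysed here. The scripts were tested on simulated data and ran in Python 3.11.15 with pandas 2.3.3, numpy 2.4.6 and matplotlib 3.10.9. The number of arrays limits the precision.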

Additional observations from a re-analysis of the deposited data

Results flagged for a closer look

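Probe sets without a gene name here lay outside all comparisons above. Of these 12835, 16 were at least 3 log2 units above every other line in NCIH716 and none at least 3 below. The other lines had 0, 1 and 19 such high probe sets (lowest, median and highest), the last in HUTU80. The dimmest of the 16 read 6.27 in NCIH716, and their genes were not analysed here.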

How the results depend on the processing

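No paired analysis was possible because each line was measured once and the labels carry no replicate numbers. Against the 92 high and 8 low genes (gap 3) and 288 and 60 (gap 1), the counts were 139, 20, 441 and 163 against the RPMI 1640 lines alone, where a smaller set of lines must be passed, and 57, 1, 124 and 14 with background at the 99th percentile (8.42). With a gap of 2 units 148 and 14 genes were called, and with 4 units 54 and 3. The mean of all probe sets gave 5 and 31 low genes and kept 73 of the 92 high genes. It also gave 13 low runs. Over members above background in any line, NCIH716 included, the list medians were 2.34 (granules) and 3.91 (plasma proteins). Over all measured members, added after seeing the data, they were 1.77 and 0.20, and over those above background in another line 1.56 and 0.83, since the first filter admits genes through NCIH716 itself. With that filter and the mean of probe sets they were 1.97 and 3.15. Without probe sets that can bind several transcripts 68 of the 92 remained, and these medians were 1.56 and 1.99 with the first filter. Under that choice the gap of ALB was −0.17, of MFNG −0.048 and of KANK1 0.064, since the probe sets left were other ones. For ALB the one left read 3.09 in NCIH716 and was dark in all lines, and for MFNG and KANK1 the cause was not tested. Runs numbered 18 high at the 99th percentile, 5 high and 10 low when all 5 genes had to deviate, and 9 high and 1 low at 2 units. The median correlation was 0.79 over all genes. Leaving out each line gave 92 to 107, 8 to 12, 289 to 328 and 60 to 84 genes, 33 to 36 high and 23 to 29 low runs, and list medians of 2.14 to 2.39 (granules), 3.90 to 3.95 (plasma proteins), 1.99 to 3.19 (goblet cells, highest without LS180) and −2.76 to −2.53 (junctions). The 107 high genes came without MDST8 and the 12 low genes without HUTU80, and leaving out a line can only widen a gap. Signal over background limits dim genes, whose values up to 4.93 have no order.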

Other observations

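Gene groups beyond those described above held a few members at the edge of the panel. Of 29 HOX genes measured, which pattern the body axis, 6 lay at least 1 log2 unit above the others' median and 1 lay 1 unit below, where 7.97% and 7.25% of all genes did. HOXC4 was highest in NCIH716, at 7.59, against 3.79, 4.10 and 6.85 (lowest, median and highest of the other lines), and HOXB2 read 9.68 in NCIH716, against 3.83, 5.25 and 10.01. Of 24 integrins measured 3 were higher and 4 lower, and the median of −0.13 in NCIH716 lay within the −0.22 to 0.24 of the other lines. ITGA7, a laminin receptor of muscle, read 7.25 in NCIH716, against 3.31, 3.95 and 5.30. ITGA6 and ITGB4, which pair in hemidesmosomes, read 6.52 and 3.58 in NCIH716, against medians of 10.24 and 6.72.

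Of 24 genes of serine and amino acid supply 4 were higher and none lower, with CBS, of transsulfuration, at 8.30 in NCIH716, against 3.33, 3.60 and 10.44. Antigen presentation genes had 3 of 23 higher and 2 lower, near the share over all genes, and HLA-B read 11.27 in NCIH716, against 5.70, 9.81 and 12.41.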
